A study of Homo sapiens with 48 samples.

Results

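The genes described here are 10 of the heat shock response and of its co-chaperones: BAG1, BAG3, ZFAND2A, HSPA1A, HSPA1B, HSPA8, HSPH1, DNAJB1, HSPB1 and HSP90AA1. They were taken by gene name from a table of 57820 genes, of which 19129 had counts enough to be tested, and all 10 were among those tested. BAG1 was chosen by its rise in the tag-only line on UPF1 depletion, as a target of nonsense-mediated mRNA decay, so this response, and the distance of other lines from that response, are given as descriptions with no test. The others were taken in as targets of the heat shock factor HSF1 or as partners of HSP70, with earlier results of these data known. Their levels were compared in all 16 groups of the study.

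Cells meet unfolded proteins with ATP-driven chaperones of the HSP70 and HSP90 families, whose cycle is set by co-chaperones. J-domain proteins such as DNAJB1 deliver clients and speed ATP hydrolysis by HSP70, while BAG proteins and HSPH1 release its ADP so that the client can leave. In stressed cells HSF1 binds heat shock elements, inverted repeats of the unit GAA, and raises many of these genes. Nonsense-mediated mRNA decay (NMD) removes messages whose reading frame ends too early, together with some normal messages, and UPF1 is its central helicase. BAG1 is commonly used as an NMD target in human cells.

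RNA was measured in 48 libraries of Flp-In 293 T-REx cells, a derivative of the human line HEK293 that takes a transgene at a fixed genomic site. Each of 8 stable lines was transfected for 72 h with 40 nM of an siRNA against endogenous UPF1 (siUPF1) or of a non-targeting siRNA (siNT), with 3 libraries for each pair of line and siRNA. Lines K498A and DE636AA express UPF1 fused to the CLIP tag, a self-labelling protein tag, with changes in the motifs that bind and hydrolyse ATP. Lines R843C, A546H, GA-KH and E797R express CLIP-UPF1 with the changes so named in the labels. Line WT expresses wild-type CLIP-UPF1, and line CLIP is labelled with the tag alone. All 16 groups share the parental cells and transfection with an siRNA. The design text calls the 3 libraries of a group biological replicates; whether a line is 1 clone or a pool was not given in the sources used here, so a difference between lines cannot be told apart from one between clones.

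Promoters of the members were searched for the letters of the element that HSF1 binds. The 250 bases before each start site were read from RefSeq (GRCh38.p14) on the gene's strand and searched for 2 adjacent inverted units, GAANNTTC or TTCNNGAA, and for 3, the first extended by NNGAA or the second by NNTTC. Each 2-unit pattern is its own reverse complement and the 3-unit patterns are each other's, so both strands are covered, and a match of 3 units also holds matches of 2. The 2-unit element was present before 7 of the 10 members, and before 14.0% of all gene symbols in the table (11.6% of its 35116 promoters). The 3-unit element was present before 2 members, HSPA8 and HSP90AA1, and before 0.557% of symbols. No match was found in the windows of BAG1, BAG3 and HSPH1. The 5 windows shown hold the inducible HSP70 gene with 1 element, the constitutive HSP70 gene with 3-unit elements, the J-domain gene with 2 elements, ZFAND2A with 1, and BAG1 with none. DNAJB1 has 3 start sites in the table, and the window shown is the one that holds elements. Matches are in capitals; the windows are chr6:31827488-31827737, plus strand for HSPA1B, chr11:123062137-123062386, minus strand for HSPA8, chr19:14518398-14518647, minus strand for DNAJB1, chr7:1160197-1160446, minus strand for ZFAND2A, chr9:33264709-33264958, minus strand for BAG1.
HSPA1B: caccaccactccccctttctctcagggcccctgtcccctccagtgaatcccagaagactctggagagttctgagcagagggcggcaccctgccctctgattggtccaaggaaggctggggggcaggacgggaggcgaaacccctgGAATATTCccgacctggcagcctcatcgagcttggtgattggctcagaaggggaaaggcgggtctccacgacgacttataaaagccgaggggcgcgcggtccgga
HSPA8: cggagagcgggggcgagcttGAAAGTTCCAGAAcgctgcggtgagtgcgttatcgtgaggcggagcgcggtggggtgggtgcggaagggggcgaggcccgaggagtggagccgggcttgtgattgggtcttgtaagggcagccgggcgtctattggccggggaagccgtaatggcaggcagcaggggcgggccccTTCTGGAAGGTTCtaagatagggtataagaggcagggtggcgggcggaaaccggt
DNAJB1: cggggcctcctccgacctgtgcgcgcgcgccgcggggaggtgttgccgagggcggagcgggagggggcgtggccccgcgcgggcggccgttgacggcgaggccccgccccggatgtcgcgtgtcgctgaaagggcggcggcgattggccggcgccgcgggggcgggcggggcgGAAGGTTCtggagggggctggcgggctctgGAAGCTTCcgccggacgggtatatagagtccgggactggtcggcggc
ZFAND2A: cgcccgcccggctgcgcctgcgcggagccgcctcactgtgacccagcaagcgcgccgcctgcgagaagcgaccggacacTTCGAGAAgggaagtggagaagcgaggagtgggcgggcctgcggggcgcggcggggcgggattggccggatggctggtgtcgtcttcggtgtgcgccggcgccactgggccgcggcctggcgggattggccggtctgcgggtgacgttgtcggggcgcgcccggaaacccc
BAG1: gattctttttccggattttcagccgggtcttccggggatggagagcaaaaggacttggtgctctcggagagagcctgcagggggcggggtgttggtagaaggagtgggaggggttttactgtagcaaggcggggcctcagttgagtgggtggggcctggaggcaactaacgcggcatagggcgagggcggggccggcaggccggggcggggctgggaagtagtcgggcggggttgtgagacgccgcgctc
The element of HSPA1B began 105 bases before the start, that of ZFAND2A 171 bases, and those of DNAJB1 77 and 47 bases before it. HSPA8 held matches that began 230, 225, 55 and 50 bases before the start, in 2 overlapping pairs. The window of HSPA1A held the same 8 bases as that of HSPA1B, 106 bases before its start.

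Library totals ran from 21334000 to 47100200 expected counts, with a count for 23288 to 26357 genes. The 10 members together took 0.650% to 1.03% of the counts. Levels are in counts per 1e6 counts of the library (CPM) scaled by TMM factors. UPF1, the target of the siRNA, was at 18.2, 36.8 and 17.7 CPM in the 3 CLIP siUPF1 libraries, against 105, 106 and 113 CPM in CLIP siNT. Its change, siUPF1 over siNT, was log2 -2.17 (SE 0.17, adjusted p = 4.83e-13) by edgeR. In the lines with CLIP-UPF1 the transgene kept UPF1 group means between 3958 CPM (R843C siUPF1) and 7218 CPM (DE636AA siUPF1), so loss of the endogenous transcript cannot be seen there. One library stood apart: CLIP siUPF1 replicate 2 had the most UPF1 of its group and 0.631% of its counts in genes of the mitochondrial genome, where the share was 2.32% and 2.13% in replicates 1 and 3. The members' responses in CLIP are therefore given with and without it, and those of other genes where its absence ends a call or changes a value by over 1.5 times. Of the HEK293 markers, NEFL (median 282 CPM), VIM (567), KRT8 (170.4) and KRT18 (89.7) were present, NEFM and PAX2 were low (1.64 and 5.35), and EPCAM, an epithelial marker, was at 88.6. PTPRC, CD3E, ALB and MYH7, markers of blood, liver and muscle, had medians of 0 to 0.0567 CPM, and COL1A1 and COL3A1, of fibroblasts, of 2.29 and 4.24.

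The members spanned from rare to abundant transcripts. Per kilobase of the median coding transcript (GENCODE 29), the median level over the 48 libraries was 1187 CPM per kb for HSPA1B and 1067 for HSP90AA1. It was 481 for HSPA8, 67.0 for BAG1, 59.8 for DNAJB1, 42.1 for HSPH1 and 27.8 for BAG3. ZFAND2A (12.7 CPM per kb), HSPA1A (11.6) and HSPB1 (4.69) were the lowest. HSPA1A and HSPA1B are near-identical copies, and HSPA1A held 0.719% to 1.24% of the counts of the pair in every library, so how reads were shared between them is uncertain. GENCODE names 17 pseudogenes after HSPA8, 2 after HSPB1 and 1 after DNAJB1, with the same uncertainty. Only names made of the full symbol, P and a number were counted, so other members, HSP90AA1 among them, may have copies under other names. The strand setting of the counting was not given in the sources used here, and BAG1, ZFAND2A, DNAJB1 and HSP90AA1 overlap a gene on the opposite strand, whose reads cannot be told apart from theirs. HSPA1B overlaps a non-coding transcript on its own strand, and HSPA8 hosts small nucleolar RNAs.

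BAG1 was called higher on siUPF1 transfection in all 7 lines with CLIP-UPF1, HSPB1 in 6 of them and in CLIP, and ZFAND2A and HSP90AA1 were called in more than 3 lines each. Calls rest on edgeR's quasi-likelihood test, with p adjusted over all genes by Benjamini-Hochberg and a threshold of 0.05. The list of members was made with earlier results of these data known, so counts of calls beside the share over all genes are descriptions. In CLIP, BAG1 being left out as chosen on this response, 6 of the other 9 members were called higher and 1 lower, where 25.1% and 22.3% of all genes were called. Of all 10, K498A had 4 higher and 1 lower (16.2% and 16.5% of all genes), DE636AA 3 and 1 (16.7% and 17.6%) and R843C 3 and 1 (17.7% and 14.8%). A546H had 2 higher and 0 lower (17.2% and 15%), GA-KH 2 and 0 (14.5% and 13.8%), E797R 2 and 1 (16% and 13.5%) and WT 2 and 0 (14% and 13.3%). In the lines with 0 members lower by edgeR, DESeq2 made the same number of calls, and HSP90AA1 in A546H had an unadjusted p under 0.05. The median log2 change of the 10 members lay between 0.01 (A546H) and 0.19 (K498A) in the 7 lines with CLIP-UPF1. Over all genes the medians of these lines were -0.02 to 0.02. In CLIP the median of the members was 0.34, against -0.01 over all genes tested. That value includes BAG1, chosen on this response, and CLIP siUPF1 replicate 2, so it is a description with no test. Without CLIP siUPF1 replicate 2 the calls among the other 9 in CLIP were 4. They were ZFAND2A, DNAJB1 and HSPB1, higher, and HSP90AA1, lower. In that fit 21.4% of all genes were called higher and 19.1% lower.

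**Figure D1:**
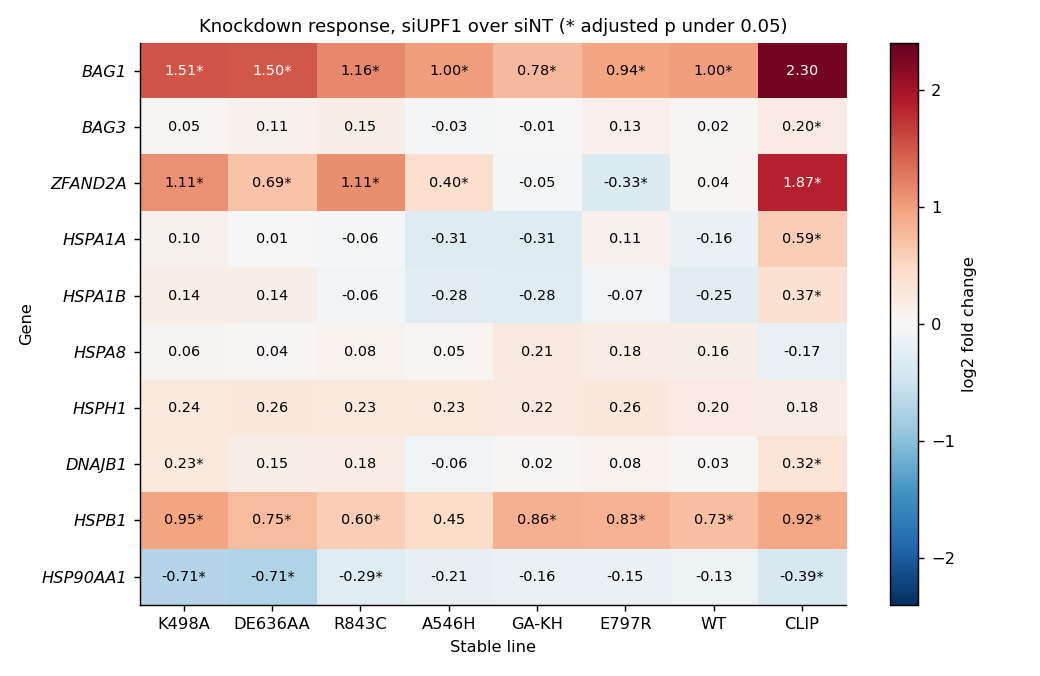
Log2 fold changes of siUPF1 over siNT for the 10 members (rows) in the 8 stable lines (columns), with the value in each cell and a star where the adjusted p was under 0.05; BAG1 in CLIP, chosen on that value, carries no mark. BAG1 was called in the 7 lines with CLIP-UPF1, HSPB1 in 7 of 8 lines, ZFAND2A in 6 and HSPA8 and HSPH1 in none.

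BAG1 encodes a nucleotide exchange factor of HSP70 that also binds the anti-apoptotic protein BCL2. Its transcript was higher with siUPF1 in all 8 lines, with every siUPF1 library above every siNT library of its line. In CLIP it was at 174, 302 and 228 CPM with siUPF1, against 47.0, 45.9 and 49.6 CPM with siNT, a change (siUPF1 over siNT) of log2 2.30 (SE 0.15), given with no test. Replicate 2 was the highest of the CLIP siUPF1 libraries, and without it the change was 2.07. In K498A BAG1 was at 120.4, 121 and 151 CPM with siUPF1, against 40.7, 43.9 and 53.5 CPM with siNT. DE636AA gave 113, 103 and 139.9 CPM with siUPF1, against 45.9, 38.7 and 41.6 CPM with siNT. These lines rose by log2 1.51 (SE 0.14, adjusted p = 1.88e-10) and log2 1.50 (SE 0.15, adjusted p = 2.16e-10) by edgeR, and their siUPF1 levels stayed below the lowest CLIP siUPF1 library. R843C held 134, 132 and 140.1 CPM with siUPF1, against 60.7, 63.0 and 57.5 CPM with siNT. The values in A546H were 141, 135 and 144 CPM with siUPF1, against 75.6, 58.6 and 75.4 CPM with siNT. BAG1 rose by log2 1.16 (SE 0.14, adjusted p = 3.6e-08) in R843C and by log2 1.00 (SE 0.14, adjusted p = 6.64e-07) in A546H, which had the highest siNT mean, 69.9 ± 9.76 CPM (SD, n = 3). GA-KH had 86.5, 72.8 and 78.8 CPM with siUPF1, against 48.5, 41.5 and 48.4 CPM with siNT. E797R had 114, 114 and 131 CPM with siUPF1, against 62.7, 65.7 and 58.9 CPM with siNT. In WT the levels were 85.2, 89.6 and 129 CPM with siUPF1, against 46.1, 50.1 and 54.8 CPM with siNT, with replicate 3 above the other siUPF1 libraries. The rises in edgeR were log2 0.78 (SE 0.14, adjusted p = 4.81e-05) in GA-KH, log2 0.94 (SE 0.14, adjusted p = 2.07e-06) in E797R and log2 1.00 (SE 0.14, adjusted p = 9.13e-07) in WT. In bulk libraries, a change in every cell and one in some cells cannot be told apart.

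In order of the siUPF1 mean, BAG1 stood at 235 ± 64.0 CPM in CLIP (SD, n = 3), 139.9 ± 4.58 in A546H, 135 ± 4.44 in R843C, 131 ± 17.4 in K498A, 119.9 ± 9.72 in E797R, 119 ± 19.0 in DE636AA, 101 ± 24.0 in WT and 79.4 ± 6.86 in GA-KH. Each pair of neighbours from A546H down to GA-KH had overlapping libraries, while the lowest CLIP library lay above the highest of A546H. The distance of the response from that of CLIP, a description here, was -1.52 in GA-KH, -1.36 in E797R, -1.30 in A546H, -1.30 in WT, -1.14 in R843C, -0.81 in DE636AA and -0.80 in K498A. Against WT the response of BAG1 differed by log2 0.50 (SE 0.20, adjusted p = 0.204) in K498A and log2 0.49 (SE 0.20, adjusted p = 0.188) in DE636AA, and no line was called by edgeR or DESeq2, with unadjusted p under 0.05 in 2 of 6. Without WT siUPF1 replicate 3 both were called, at 0.73 and 0.73, and with no filter on low counts both were called as well (0.52 and 0.53).

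ZFAND2A, also known as AIRAP, encodes a zinc finger protein induced by arsenite that binds the proteasome, and is a known HSF1 target. Its response split the lines: it rose in CLIP, K498A, DE636AA, R843C and A546H, fell in E797R, and was not called in GA-KH and WT. In CLIP ZFAND2A was at 35.9, 25.3 and 44.6 CPM with siUPF1, against 9.73, 10.2 and 9.06 CPM with siNT, and it rose by log2 1.87 (SE 0.13, adjusted p = 6.37e-15) by edgeR. Unlike BAG1, it was lowest in replicate 2 of the CLIP siUPF1 libraries, and without that library the rise was 2.05. R843C gave 34.5, 32.0 and 37.2 CPM with siUPF1, against 15.8, 16.2 and 16.2 CPM with siNT, a rise of log2 1.11 (SE 0.12, adjusted p = 3.87e-09). In K498A the levels were 17.9, 19.4 and 23.3 CPM with siUPF1, against 9.65, 8.59 and 9.90 CPM with siNT, and the rise was log2 1.11 (SE 0.13, adjusted p = 7.69e-09). DE636AA held 17.6, 16.6 and 17.5 CPM with siUPF1, against 11.1, 9.59 and 11.3 CPM with siNT, a rise of log2 0.69 (SE 0.13, adjusted p = 3.61e-05). In these 4 lines siUPF1 and siNT libraries did not overlap. A546H gave 22.4, 22.8 and 18.9 CPM with siUPF1, against 14.4, 15.9 and 18.3 CPM with siNT, the lowest siUPF1 library lying above the highest siNT library. Its rise of log2 0.40 (SE 0.12, adjusted p = 0.0119) was not called without A546H siUPF1 replicate 1 (0.35), A546H siUPF1 replicate 2 (0.33) or A546H siNT replicate 1 (0.30). In GA-KH the transcript was at 11.9, 9.96 and 10.5 CPM with siUPF1, against 10.9, 11.3 and 11.3 CPM with siNT, a change of log2 -0.05 (SE 0.13, adjusted p = 0.82). WT was at 10.1, 11.1 and 12.2 CPM with siUPF1, against 10.1, 12.0 and 10.4 CPM with siNT, a change of log2 0.04 (SE 0.13, adjusted p = 0.873), and in both lines the libraries overlapped. E797R was at 8.78, 8.14 and 8.47 CPM with siUPF1, against 10.4, 11.2 and 10.4 CPM with siNT, every siUPF1 library below every siNT library. Its fall, -0.33 on the log2 scale (SE 0.13, adjusted p = 0.0465 by edgeR) lost its call when any 1 of its 6 libraries was left out: without E797R siUPF1 replicate 1 (-0.38), E797R siUPF1 replicate 2 (-0.31), E797R siUPF1 replicate 3 (-0.36), E797R siNT replicate 1 (-0.35), E797R siNT replicate 2 (-0.31) or E797R siNT replicate 3 (-0.35).

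**Figure D2:**
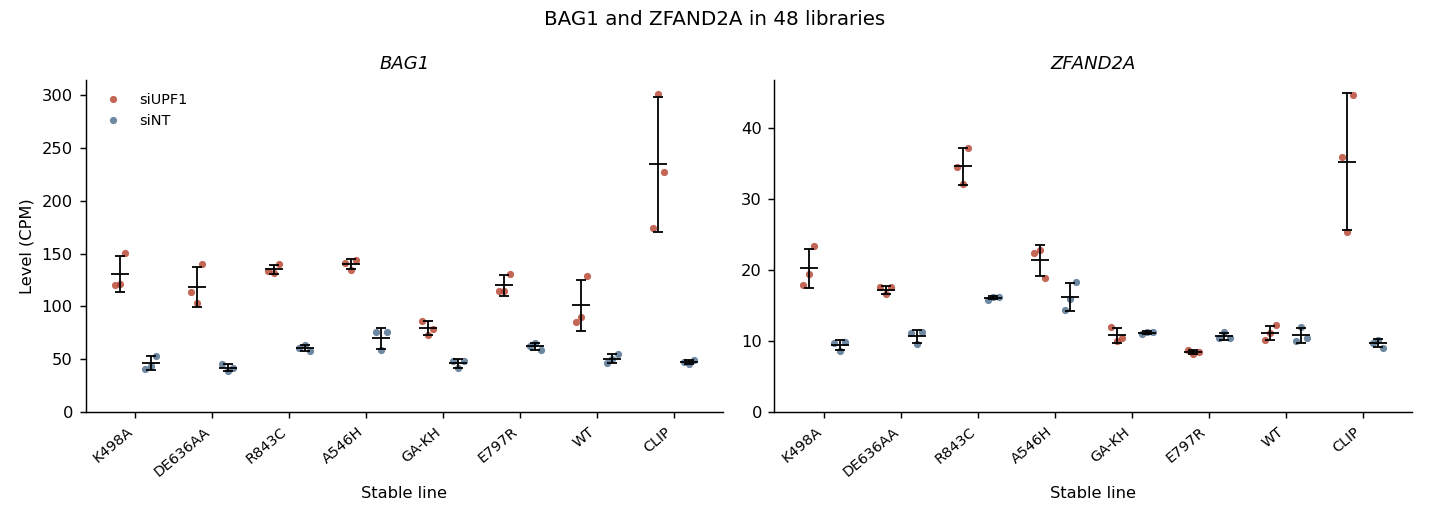
Levels of BAG1 and ZFAND2A in CPM in every library (points), with the mean and SD of the 3 libraries of each group, siUPF1 left of siNT in each stable line. BAG1 was higher with siUPF1 in all 8 lines, while the siUPF1 and siNT libraries of ZFAND2A overlapped in GA-KH and WT.

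The difference in response of ZFAND2A from CLIP was called in all 7 lines with CLIP-UPF1, always in the lower direction. In R843C its siUPF1 mean, 34.6 CPM, was near the 35.3 CPM of CLIP, and its siNT mean was higher, at 16.1 CPM against 9.67 CPM. A546H had a siUPF1 mean of 21.3 CPM and also a higher siNT mean, 16.2 CPM. Of the 9 members other than BAG1, those called lower than CLIP numbered 4 in A546H, 3 in GA-KH, 2 in WT and 1 each in K498A, DE636AA, R843C and E797R. These counts take HSPA1A and HSPA1B, near-identical copies, as separate members in A546H and GA-KH, and hold HSPA1B in WT. All the calls of this pair were lost without CLIP siUPF1 replicate 2. Among all genes the share called lower in this comparison was 11.6% in DE636AA, 9.57% in K498A, 9.44% in GA-KH, 8.52% in E797R, 8.08% in WT, 4.03% in A546H and 0.643% in R843C. No member was called higher by edgeR or DESeq2, where all genes called higher were 6.32% in DE636AA, 4.85% in GA-KH, 4.75% in E797R, 4.02% in K498A, 3.77% in WT, 1.6% in A546H and 0.11% in R843C, and HSPA8 in GA-KH (log2 0.38, SE 0.17) and E797R (log2 0.35, SE 0.17) had an unadjusted p under 0.05. The differences were log2 -0.76 (SE 0.18) in K498A, log2 -1.18 (SE 0.18) in DE636AA, log2 -0.76 (SE 0.17) in R843C and log2 -1.47 (SE 0.18) in A546H. They were log2 -1.92 (SE 0.18) in GA-KH, log2 -2.20 (SE 0.18) in E797R and log2 -1.83 (SE 0.18) in WT, with edgeR adjusted p from 2.58e-11 to 0.0191. The call in R843C was lost without CLIP siUPF1 replicate 3 (-0.57), CLIP siNT replicate 3 (-0.72), R843C siUPF1 replicate 2 (-0.73) or R843C siNT replicate 2 (-0.76). Against WT, where 1.44%, 1.78% and 1.68% of all genes were called higher in K498A, DE636AA and R843C, the response of ZFAND2A was larger in all 3 of these lines. It was larger by log2 1.07 (SE 0.18, adjusted p = 0.000242) in K498A, log2 0.65 (SE 0.18, adjusted p = 0.0263) in DE636AA and log2 1.07 (SE 0.18, adjusted p = 0.000224) in R843C. The call in DE636AA was lost without WT siUPF1 replicate 1 (0.60), WT siNT replicate 2 (0.57), DE636AA siUPF1 replicate 1 (0.65) or DE636AA siNT replicate 2 (0.58). The values in A546H (log2 0.36, SE 0.18), GA-KH (log2 -0.09, SE 0.18) and E797R (log2 -0.37, SE 0.18) were not called, and in these lines 0 members were called by edgeR or DESeq2 (ZFAND2A in E797R alone had an unadjusted p under 0.05), where 0.256% and 0.0418% of all genes in A546H, and 0% in GA-KH and E797R, were called higher and lower. BAG1 was called in none of these comparisons with WT; whether the responses of the 2 genes differ there was not tested.

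HSPA1A and HSPA1B encode the same inducible HSP70, the protein most used as a readout of the heat shock response. Neither was called in any of the 7 lines with CLIP-UPF1, and in CLIP both calls were lost without 1 library. HSPA1B in CLIP was at 3091, 5756 and 3623 CPM with siUPF1, against 3134, 3189.7 and 3331 CPM with siNT, and HSPA1A at 25.7, 63.0 and 32.2 CPM with siUPF1, against 28.4, 24.5 and 27.0 CPM with siNT. In both copies replicate 2 stood far above the rest, and the siUPF1 and siNT libraries overlapped. HSPA1B was called higher by log2 0.37 (SE 0.14, adjusted p = 0.0302) and HSPA1A by log2 0.59 (SE 0.19, adjusted p = 0.0112) by edgeR. Without replicate 2 the values were 0.05 and 0.11, with edgeR adjusted p of 0.782 and 0.629. The call of HSPA1B was also lost without CLIP siNT replicate 1 (0.36) or CLIP siNT replicate 2 (0.36), and both calls in a fit to the 6 CLIP libraries alone (adjusted p = 0.276 and 0.218 by edgeR). Summed to 1 gene the pair was at 4197 ± 1430.5 CPM with siUPF1, against 3245 ± 101 CPM with siNT (SD, n = 3 each), a log2 change of 0.37 (edgeR adjusted p = 0.0293).

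In the other lines the response of HSPA1B ran from -0.28 to 0.14 on the log2 scale. A546H had 2619, 2517 and 2914 CPM with siUPF1, against 3414, 2773 and 3578 CPM with siNT, a change of log2 -0.28 (SE 0.14, adjusted p = 0.133) with overlapping libraries. GA-KH had 2328, 1764 and 2503 CPM with siUPF1, against 2838, 2189 and 2992 CPM with siNT, a change of log2 -0.28 (SE 0.14, adjusted p = 0.138), which was called without GA-KH siNT replicate 2 (-0.42). In HSPA1A every siUPF1 library of A546H and of GA-KH was below every siNT library, with changes of log2 -0.31 (SE 0.20) and log2 -0.31 (SE 0.20) that were called in fits to these lines alone (-0.31 and -0.34). WT had 1999.9, 2451 and 2585 CPM with siUPF1, against 2632, 2909 and 2855 CPM with siNT, every siUPF1 library below every siNT library, and a change of log2 -0.25 (SE 0.14, adjusted p = 0.192). With no filter on low counts HSPA1B was called lower in A546H (-0.29), GA-KH (-0.31) and WT (-0.27), and HSPA1A in GA-KH (-0.33). Set against CLIP, the response of HSPA1B was lower by edgeR in A546H (log2 -0.65, SE 0.20, adjusted p = 0.047), GA-KH (log2 -0.65, SE 0.20, adjusted p = 0.0241) and WT (log2 -0.62, SE 0.20, adjusted p = 0.0349). HSPA1A was lower in A546H (log2 -0.90, SE 0.28, adjusted p = 0.045) and GA-KH (log2 -0.90, SE 0.28, adjusted p = 0.0234). All 5 were lost without CLIP siUPF1 replicate 2, at -0.35, -0.36 and -0.32 for HSPA1B and -0.44 and -0.45 for HSPA1A. Each was also lost on leaving out 1 other library. For HSPA1B in A546H these were CLIP siNT replicates 1, 2 and 3, A546H siUPF1 replicates 1 and 2 and A546H siNT replicates 1 and 3 (-0.67 to -0.57 without one of them). For HSPA1B in GA-KH these were CLIP siNT replicate 1, GA-KH siUPF1 replicate 2 and GA-KH siNT replicates 1 and 3 (-0.65 to -0.54 without one of them). For HSPA1B in WT these were CLIP siNT replicates 1, 2 and 3, WT siUPF1 replicates 1 and 2 and WT siNT replicates 2 and 3 (-0.66 to -0.53 without one of them). For HSPA1A in A546H these were CLIP siNT replicates 1, 2 and 3, A546H siUPF1 replicates 1, 2 and 3 and A546H siNT replicates 1 and 3 (-0.97 to -0.84 without one of them). For HSPA1A in GA-KH these were CLIP siNT replicate 2 and GA-KH siNT replicate 3 (-0.84 without either). Without CLIP siUPF1 replicate 1 the difference of HSPA1A was called in WT (-1.01), K498A (-0.75), DE636AA (-0.82), R843C (-0.91) and E797R (-0.76) too, that of HSPA1B in E797R (-0.65), of BAG3 in A546H (-0.34) and GA-KH (-0.31) and of DNAJB1 in WT (-0.32) and GA-KH (-0.34). Without CLIP siUPF1 replicate 3 or WT siUPF1 replicate 3 HSPA1A was called in WT (-0.91 and -0.99). The difference of HSPA1A in WT was also called by DESeq2 (-0.77) and with the pair summed (-0.63). With no filter on low counts HSPA1A was called lower than CLIP in WT (-0.74), DE636AA (-0.53), R843C (-0.66) and E797R (-0.50) too, and HSPA1B in E797R (-0.45).

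**Figure D3:**
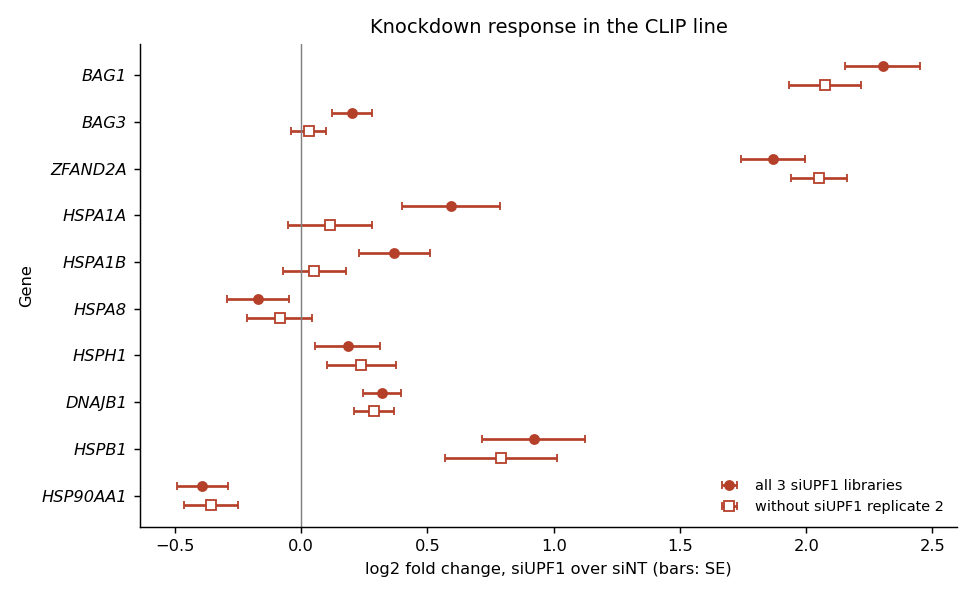
Log2 fold changes of siUPF1 over siNT in the CLIP line, with SE, from all 3 siUPF1 libraries (filled circles) and without siUPF1 replicate 2 (open squares). HSPA1A, HSPA1B and BAG3 moved towards 0 without that library, while ZFAND2A, DNAJB1, HSPB1 and HSP90AA1 kept their calls; BAG1, chosen on this response, is shown with no test.

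HSPA8, the constitutive HSP70, and HSPH1, the large exchange factor HSP110, were not called in any of the 8 responses by edgeR or DESeq2, with an unadjusted p under 0.05 in 0 of 8 lines for each. In CLIP HSPA8 was at 967, 773 and 941 CPM with siUPF1, against 1036, 953 and 1029 CPM with siNT, a change of log2 -0.17 (SE 0.12), and between 0.04 and 0.21 in the other lines. Without WT siUPF1 replicate 3 its response in WT was called higher than in CLIP, by 0.47. Over all 48 libraries it ran from 759.8 to 1306 CPM (median 965). The change of HSPH1 lay between log2 0.18 and 0.26 in all 8 lines, with edgeR adjusted p of 0.121 to 0.276. In R843C it was at 229, 221 and 200.0 CPM with siUPF1, against 188, 188 and 179 CPM with siNT, the only line whose libraries did not overlap, with a change of log2 0.23 (SE 0.13). In DE636AA it was at 180.2, 161 and 145 CPM with siUPF1, against 159.5, 129 and 117 CPM with siNT, a change of log2 0.26 (SE 0.13) that was called without DE636AA siNT replicate 1 (0.39) and with no filter on low counts (0.28). The R843C change was called in a fit to that line alone (0.21). The median spread between replicates of HSPH1 was 10.9% of the mean, against 3.60% for BAG3.

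DNAJB1, the J-domain partner that loads HSP70, rose a little in CLIP and K498A. In CLIP it was at 134, 140.5 and 134 CPM with siUPF1, against 112, 106 and 109 CPM with siNT, with no overlap, and rose by log2 0.32 (SE 0.08, adjusted p = 0.000642) by edgeR, or 0.29 without replicate 2. In a fit to the CLIP libraries alone it missed the threshold (adjusted p = 0.0665). K498A had 120.2, 121 and 106 CPM with siUPF1, against 100.4, 98.2 and 97.5 CPM with siNT, and a rise of log2 0.23 (SE 0.08, adjusted p = 0.0167). That call was lost without K498A siUPF1 replicate 1 (0.19), K498A siUPF1 replicate 2 (0.19), K498A siNT replicate 2 (0.21) or K498A siNT replicate 3 (0.22), and with no filter on low counts (0.23, adjusted p = 0.128 by edgeR). In R843C (log2 0.18, SE 0.08) it was called with the line fitted alone (0.16). In A546H it was at 113, 109 and 108 CPM with siUPF1, against 119.6, 101 and 124 CPM with siNT, a change of log2 -0.06 (SE 0.08), and this response was lower than that of CLIP, with a log2 difference of -0.38 (SE 0.11, edgeR adjusted p = 0.0263). That difference was lost without CLIP siNT replicate 2 (-0.36), CLIP siNT replicate 3 (-0.38), A546H siNT replicate 1 (-0.37) or A546H siNT replicate 3 (-0.33), and with no filter on low counts (-0.38). With TMM factors, all libraries and no term for the replicate number, edgeR called no other difference of DNAJB1 from CLIP. DESeq2 also called those of GA-KH (-0.32) and WT (-0.30), and edgeR with RLE factors that of GA-KH (-0.32). In edgeR the difference in GA-KH was also called without CLIP siUPF1 replicate 1 (-0.34), CLIP siUPF1 replicate 3 (-0.33), GA-KH siUPF1 replicate 1 (-0.38), GA-KH siUPF1 replicate 3 (-0.34) or GA-KH siNT replicate 2 (-0.39), and that in WT without CLIP siUPF1 replicate 1 (-0.32) or CLIP siUPF1 replicate 3 (-0.31).

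BAG3, the stress-induced exchange factor that links HSP70 to selective autophagy, had the tightest replicates of the 10 genes and changes near 0. In CLIP it was at 74.2, 101 and 74.2 CPM with siUPF1, against 68.8, 72.0 and 76.0 CPM with siNT, with siUPF1 replicate 2 above all others and the remaining libraries overlapping. It was called higher by log2 0.20 (SE 0.08, adjusted p = 0.0364) by edgeR, a call lost without CLIP siUPF1 replicate 2 (0.03), CLIP siNT replicate 1 (0.17) or CLIP siNT replicate 2 (0.20), in the fit to CLIP alone (adjusted p = 0.389) and with no filter on low counts (adjusted p = 0.287). In the other lines its change was -0.03 to 0.15, and none was called.

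HSPB1, the small heat shock protein HSP27, which holds unfolded proteins without using ATP, rose in 7 of 8 lines from a very low level. K498A had 6.62, 4.88 and 5.67 CPM with siUPF1, against 3.27, 2.26 and 3.37 CPM with siNT, and HSPB1 rose by log2 0.95 (SE 0.19, adjusted p = 0.000143) by edgeR. DE636AA had 4.92, 5.61 and 6.75 CPM with siUPF1, against 2.74, 3.78 and 3.78 CPM with siNT, and a rise of log2 0.75 (SE 0.19). In CLIP the levels were 3.79, 5.03 and 4.08 CPM with siUPF1, against 2.16, 2.01 and 2.63 CPM with siNT, with a rise of log2 0.92 (SE 0.20, adjusted p = 0.000257), or 0.79 without replicate 2. The rises were log2 0.86 (SE 0.19) in GA-KH and log2 0.83 (SE 0.20) in E797R. WT had 4.01, 4.01 and 5.32 CPM with siUPF1, against 2.88, 1.97 and 3.16 CPM with siNT, and a rise of log2 0.73 (SE 0.20, adjusted p = 0.00533), lost without WT siUPF1 replicate 3 (0.56) or WT siNT replicate 2 (0.54). R843C had 4.12, 3.37 and 4.50 CPM with siUPF1, against 2.70, 2.09 and 3.11 CPM with siNT, and a rise of log2 0.60 (SE 0.20, adjusted p = 0.0183), lost without R843C siUPF1 replicate 1 (0.55), R843C siUPF1 replicate 3 (0.48) or R843C siNT replicate 2 (0.46). A546H, at 3.24, 3.90 and 2.84 CPM with siUPF1, against 2.66, 1.63 and 2.97 CPM with siNT, had a change of log2 0.45 (SE 0.21, adjusted p = 0.0955) with overlapping libraries, which was called without A546H siNT replicate 3 (0.61). In the 7 lines with a call every siUPF1 library lay above every siNT library. No difference of this response from CLIP or WT was called by edgeR or DESeq2, and none had an unadjusted p under 0.05. The lowest library held 47 counts of HSPB1, and the median spread between replicates was 15.6% of the mean, the widest of the 10.

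HSP90AA1, the inducible cytosolic HSP90, was the only member that fell apart from ZFAND2A in E797R, with its largest falls in the lines with ATPase motif changes. K498A had 2209, 2404 and 2122 CPM with siUPF1, against 3576, 3789 and 3614 CPM with siNT, a fall, -0.71 on the log2 scale (SE 0.10, edgeR adjusted p = 7.07e-07). DE636AA had 2141, 2014 and 1826 CPM with siUPF1, against 3737, 3178 and 2894 CPM with siNT, a fall, -0.71 on the log2 scale (SE 0.10, edgeR adjusted p = 5.09e-07). All 6 siUPF1 libraries of these lines were below every other library of the study. CLIP had 3563, 3193 and 3445 CPM with siUPF1, against 4408, 4423 and 4556 CPM with siNT, with no overlap and a fall, -0.39 on the log2 scale (SE 0.10, edgeR adjusted p = 0.00138), or -0.36 without replicate 2. R843C had 3798, 3498 and 3333 CPM with siUPF1, against 4576, 4323 and 4082 CPM with siNT, a fall, -0.29 on the log2 scale (SE 0.10, edgeR adjusted p = 0.024) that was lost without R843C siUPF1 replicate 3 (-0.27), R843C siNT replicate 1 (-0.25) or R843C siNT replicate 2 (-0.29). The changes in A546H (log2 -0.21, SE 0.10), GA-KH (log2 -0.16, SE 0.10), E797R (log2 -0.15, SE 0.10) and WT (log2 -0.13, SE 0.10) were not called, and that of A546H was called without A546H siNT replicate 3 (-0.34). Against WT the response was lower in K498A, with a log2 difference of -0.57 (SE 0.14, edgeR adjusted p = 0.0142) and in DE636AA, with -0.58 (SE 0.14, edgeR adjusted p = 0.01), where 1.81% and 2.72% of all genes were called lower. Each call was lost without 1 library, WT siUPF1 replicate 2 for K498A (-0.50) and DE636AA siNT replicate 1 for DE636AA (-0.48). Against CLIP the differences were log2 -0.31 (SE 0.14) in K498A and log2 -0.32 (SE 0.14) in DE636AA, and neither was called by edgeR with 1 term per group or by DESeq2. The unadjusted p was under 0.05 in these 2 of the 7 lines.

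**Figure D4:**
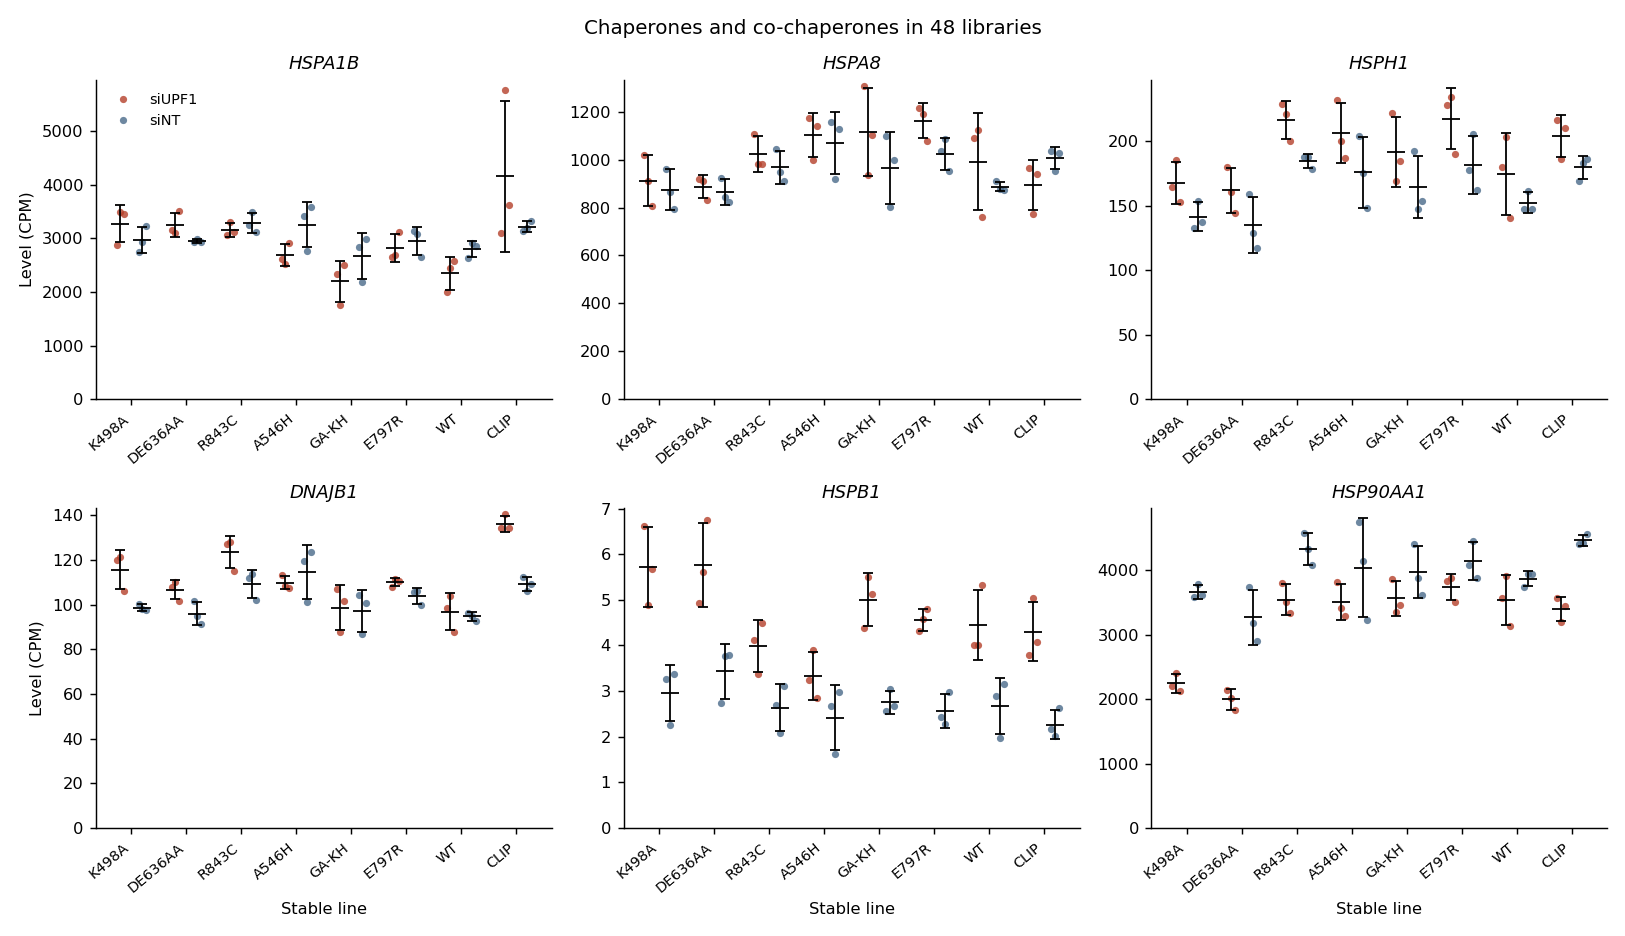
Levels in CPM of HSPA1B, HSPA8, HSPH1, DNAJB1, HSPB1 and HSP90AA1 in every library (points), with the mean and SD of the 3 libraries of each group, siUPF1 left of siNT. HSP90AA1 was lowest in the siUPF1 libraries of K498A and DE636AA, and HSPA1B in CLIP siUPF1 replicate 2 stood above every other library.

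With siNT, where endogenous UPF1 is present, few members differed between lines. Of the 7 lines with CLIP-UPF1, R843C and A546H each had 1 member higher than CLIP and DE636AA had 1 lower, where 0.0836%, 0.0993% and 0.653% of all genes were called. ZFAND2A was at 15.8, 16.2 and 16.2 CPM in R843C siNT and at 14.4, 15.9 and 18.3 CPM in A546H siNT, against 9.73, 10.2 and 9.06 CPM in CLIP siNT. It was higher by log2 0.73 (SE 0.13, adjusted p = 0.00244) in R843C and by log2 0.74 (SE 0.13, adjusted p = 0.00197) in A546H by edgeR, with no overlap. The second call was lost without A546H siNT replicate 3 (0.65). BAG1 was at 75.6, 58.6 and 75.4 CPM in A546H siNT, above the 47.0, 45.9 and 49.6 CPM of CLIP siNT, a difference of log2 0.56 (SE 0.14, adjusted p = 0.157) that was not called, although with no filter on low counts it was (adjusted p = 0.000135). R843C and E797R siNT libraries of BAG1 also lay above those of CLIP, by log2 0.35 (SE 0.14) and log2 0.39 (SE 0.14). HSP90AA1 was at 3737, 3178 and 2894 CPM in DE636AA siNT, against 4408, 4423 and 4556 CPM in CLIP siNT, a difference of log2 -0.45 (SE 0.10, adjusted p = 0.023). That call was lost without CLIP siNT replicate 1 (-0.47), CLIP siNT replicate 2 (-0.46), CLIP siNT replicate 3 (-0.43), DE636AA siNT replicate 2 (-0.43) or DE636AA siNT replicate 3 (-0.37). HSPH1 in DE636AA siNT had a log2 difference of -0.41 (SE 0.13, edgeR adjusted p = 0.087), which was called by DESeq2, with no filter and without DE636AA siNT replicate 1 (-0.55). HSPB1 there was at log2 0.59 (SE 0.20), and was called without the same library (0.74). K498A, GA-KH, E797R and WT had 0 members called by edgeR and DESeq2, and 2, 1, 1 and 2 members with an unadjusted p under 0.05. All genes called higher and lower were 0.0261% and 0.0105% in K498A, 0.0575% and 0.00523% in GA-KH, 0.0105% and 0.0157% in E797R, 0.0157% and 0.0157% in WT, and 0.69% were higher in DE636AA, 0.0261% lower in A546H and 0.00523% lower in R843C.

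Of other chaperone genes in CLIP, where 25.1% and 22.3% of all genes were called higher and lower, most lists held calls in both directions and the chaperonin and BAG lists only lower ones. Of 23 other heat shock inducible genes tested, 4 were called higher and 7 lower (median -0.12). Of 11 other HSP70 genes 1 was higher and 4 lower (0.06), of 12 J-domain genes of the DNAJA and DNAJB classes 3 and 5 (-0.19), and of 15 HSP90 and HSP70 cofactors 7 and 6 (-0.02). The 8 subunits of the cytosolic chaperonin, which folds actin and tubulin, were all called lower, with a median of -0.47, against -0.01 over all genes. Of them 7 were lower in R843C, 6 each in K498A, DE636AA and A546H, 3 each in GA-KH and E797R and 2 in WT. The log2 changes in CLIP were -0.65 for CCT4, -0.62 for CCT2 and -0.58 for CCT6A. Of 4 other BAG genes BAG4 (-0.66) and BAG5 (-0.22) fell in CLIP. Of 3 genes tested from the list of other small heat shock proteins 1 rose and 1, HSPB11, fell (-0.65). Whether HSPB11 belongs to that family by more than its symbol was not checked. Of 6 other ZFAND genes 2 rose, ZFAND2B (0.81), the closest relative of ZFAND2A, and ZFAND3 (0.60), and 2 fell, led by ZFAND6 (-0.66).

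Several of these counts changed in a fit without CLIP siUPF1 replicate 2, an alternative chosen after the data were seen, in which 21.4% and 19.1% of all genes were called higher and lower. In it 3 and 6 heat shock inducible genes, 3 and 3 HSP70 genes, 3 and 2 J-domain genes and 4 and 4 cofactors were called higher and lower. The chaperonin list had 0 and 7, the ZFAND list 3 and 1, the BAG list 0 and 2 and the small heat shock protein list 1 and 1. The log2 changes were then smaller in BAG4 (-0.35), BAG5 (-0.13), HSPB11 (-0.32), ZFAND6 (-0.40), CHORDC1 (-0.46), PTGES3 (-0.44) and HSPA4 (-0.30), all still called. DNAJB14 was not called without it (-0.21, edgeR adjusted p = 0.289).

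Of all genes tested, 5.75% were called higher in all 8 lines and 5.24% lower. PTGES3, the HSP90 cofactor p23, fell in all 8, with log2 changes of -1.35 in DE636AA, -1.19 in K498A, -0.75 in CLIP, -0.68 in R843C, -0.65 in A546H, -0.54 in GA-KH, -0.49 in E797R and -0.44 in WT. ST13, which binds HSP70 in its ADP state, rose in all 8, with log2 changes of 1.27 in E797R, 1.21 in GA-KH, 1.20 in WT, 1.16 in A546H, 1.09 in R843C, 0.98 in CLIP, 0.82 in K498A and 0.71 in DE636AA. HYOU1, an HSP70 relative of the endoplasmic reticulum, rose in all 8, by 1.35 in CLIP and 0.77 to 1.04 elsewhere. DEDD2, a heat shock inducible gene, rose in CLIP (0.94), K498A (0.31), DE636AA (0.42) and R843C (0.54), 4 of the 5 lines where ZFAND2A rose, while CHORDC1, an HSP90 partner, fell in CLIP (-0.76). DNAJB2 rose in CLIP (0.73) and R843C (0.66) and fell in GA-KH (-0.37), E797R (-0.48) and WT (-0.30). DNAJB9, of the endoplasmic reticulum, rose in 7 lines, by 0.64 in CLIP and 1.51 in DE636AA, and was at 0.61 in WT. HSPA4 (-0.47), HSPA12A (-0.38; called lower in all lines but GA-KH) and DNAJB14 (-0.46) fell in CLIP.

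HSF1, the factor that drives the heat shock genes, had its own transcript at 71.5 ± 12.9 CPM in CLIP siUPF1, against 45.0 ± 2.00 CPM in CLIP siNT (SD, n = 3 each). It rose by log2 0.67 (SE 0.10) in CLIP, 0.42 in A546H, 0.34 in R843C, 0.32 in E797R and 0.26 in K498A, and was not called in DE636AA (0.25), GA-KH (0.24) and WT (0.13). Without CLIP siUPF1 replicate 2 the rise of HSF1 in CLIP was 0.50. HSF4, at means of 9.63 CPM in CLIP siUPF1 and 4.08 CPM in CLIP siNT, rose by 1.22 in CLIP, or 0.80 without that library. It also rose in A546H (0.81), R843C (0.80), WT (0.70), GA-KH (0.66) and E797R (0.62), and was not called in K498A (0.22) and DE636AA (0.19). HSF2 was called lower in CLIP (-0.31), a call lost without CLIP siUPF1 replicate 2 (-0.10, edgeR adjusted p = 0.469). MT-ATP6 was the 1 mitochondrially encoded gene of 15 called in CLIP (-0.66), lower, beside the low mitochondrial share of replicate 2. Without that library it was not called (-0.22, edgeR adjusted p = 0.168), and 1 of the 15 was called higher.

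Members with an annotated NMD transcript were among those that rose, those that fell and those with no call. In GENCODE 29 on GRCh38, BAG1, HSPH1 and HSPB1 each have 1 transcript of the NMD class and HSP90AA1 has 2, so 4 of the 10 members hold one, against 41.8% of 14077 tested protein-coding genes. ZFAND2A and DNAJB1, which rose in CLIP, have none, and HSP90AA1, which fell, has 2. Counts per gene do not tell transcripts apart, so slower decay and more transcription cannot be told apart for any of these genes.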

How the data were processed

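The 48 libraries were sequenced from ribosomal-RNA-depleted total RNA, 500 ng each, per the labels' protocols. Expected counts per gene, not normalised, were deposited by the authors in 1 table, made with cutadapt, STAR and RSEM on hg19, with DESeq2 also listed, per the submitters' processing notes; versions, annotation and strand setting are not given in the sources used here. The table pairs gene IDs with names and has no coordinates, so GRCh38 references served only for gene structure and promoters.

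Expected counts were rounded and fitted in R 4.3.3 with edgeR 4.0.16 (limma 3.58.1): filterByExpr by group (19129 genes), TMM, and 1 quasi-likelihood model of all 48 libraries with 1 term per group. The 28 comparisons were 8 responses, 7 differences from CLIP, 6 from WT and 7 between siNT libraries, each with Benjamini-Hochberg adjustment over all genes tested at 0.05. SE is the log2 fold change over the root of F. Alternatives were RLE size factors, DESeq2 1.42.0, no filter, a replicate block, single-line fits, the HSPA1 pair summed, and leaving out each library. Of 48 replicate pairs 0 were identical, and all differed by more than sampling noise.

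The members and lists were chosen with earlier results of these data known. From each other list, up to 3 genes called in CLIP with the largest change and a mean of at least 5 CPM are named, and for each member the 3 most alike over group means (prior count 2), clone names passed over; 1 of these is not reported here.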

Additional observations from a re-analysis of the deposited data

Results flagged for a closer look

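The 25 results here are differences between lines, the log2 response in one line minus that in another, and apart from those of BAG1 each passed the test of the difference itself. For BAG1 the difference from CLIP was -1.52 in GA-KH, -1.36 in E797R, -1.30 in A546H, -1.30 in WT, -1.14 in R843C, -0.81 in DE636AA and -0.80 in K498A, and since BAG1 was chosen for its response in CLIP, these are values with no test. For ZFAND2A it was -2.20 in E797R, -1.92 in GA-KH, -1.83 in WT, -1.47 in A546H, -1.18 in DE636AA, -0.76 in K498A and -0.76 in R843C, all called. R843C had a siUPF1 mean of ZFAND2A near that of CLIP and a higher siNT mean. HSPA1A differed from CLIP by -0.90 in GA-KH and -0.90 in A546H, and HSPA1B by -0.65 in GA-KH, -0.65 in A546H and -0.62 in WT; the 5 calls were lost without CLIP siUPF1 replicate 2. DNAJB1 differed from CLIP by -0.38 in A546H. Against WT, ZFAND2A differed by 1.07 in R843C, 1.07 in K498A and 0.65 in DE636AA, and HSP90AA1 by -0.58 in DE636AA and -0.57 in K498A. The 7 differences from CLIP share its 6 libraries, and those from WT share the 6 of WT.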

How the results depend on the processing

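Of 3716 values of single members under an alternative, 3568 kept direction and side of the threshold, 88 lost a call, 60 gained one and 0 reversed; 161 values not called changed sign. With other size factors 1 call was gained, with DESeq2 4 and with HSPA1A and HSPA1B summed 1, and none was lost. No filter gained 14 and lost 3, and fits to single lines gained 5 and lost 4. Member calls between siNT libraries went to 5 with no filter, from 3, those of GA-KH to 4, from 2, and in fits to single lines those of CLIP went to 4, from 8, and of A546H to 4, from 2. Over all genes, the main fit called from 5211 (WT) to 9066 (CLIP) of 19129 in the single responses. Leaving out each library in turn gave 27 to 32 member calls over the 8 responses, against 30. By line the range was 5 to 8 in CLIP, 1 to 2 in WT, 4 to 5 in K498A, 4 to 5 in DE636AA, 2 to 4 in R843C, 1 to 4 in A546H, 2 to 3 in GA-KH and 2 to 2 in E797R. Differences from CLIP gave 15 to 30, against 20 (15 without CLIP siUPF1 replicate 2 or CLIP siNT replicate 2 or 3, 30 without CLIP siUPF1 replicate 1), those from WT 4 to 7, against 5, and those between siNT libraries 2 to 5, against 3. The cause was not tested.

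Over all genes, the fit to CLIP alone called 3741, against 9066. With no filter, DESeq2 and the replicate block, the difference of R843C from CLIP gave 332, 302 and 341 genes, against 144. The difference of A546H from WT gave 153, 119 and 156, against 57, and with no filter those of GA-KH and E797R gave 35 and 56, against 0. In the same order, siNT levels against CLIP gave 764, 627 and 1273 in DE636AA, against 257; 74, 28 and 32 in R843C, against 17; and 111, 48 and 78 in A546H, against 24. SiNT levels in K498A gave 339, 56 and 205, against 7. With no filter and DESeq2 those in WT gave 57 and 10, against 6, and those in E797R 66 and 13, against 5; with no filter GA-KH gave 57, against 12. The block alone raised the difference of A546H from CLIP to 1996, against 1077, and the differences from WT to 1041 in K498A, 1427 in DE636AA and 573 in R843C, against 623, 860 and 371.

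Member counts here include BAG1 in CLIP and its differences from CLIP, which the report gives with no test. The fit to other chaperone genes without CLIP siUPF1 replicate 2 was chosen after the data were seen.

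Replicate numbers did not meet the rule for pairing, every pair over 0.1. Over 24 pairs of a line the deviations correlated at -0.01 to 0.28 (median 0.12), with 15 over 0.1, and every pair was over 0.1 in 2 of 8 lines. Among the 3 libraries of the other siRNA in its line, 41 of 48 libraries correlated best with the one of their own number. The numbers may thus mark libraries handled together, which the design does not state and which was not tested. With the replicate number as a block, calls over all genes in the responses were 1.08 (CLIP) to 1.17 (GA-KH) times those of the main fit. In differences from CLIP they were 1.34 (DE636AA) to 2.37 (R843C) times those of the main fit. Under the block the responses gave 32 member calls, differences from CLIP 24, differences from WT 5 and siNT levels 6, with 9 calls gained and none lost. The calls gained were the responses of HSPH1 in DE636AA (0.26) and DNAJB1 in R843C (0.18), the differences from CLIP of DNAJB1 in WT (-0.29), HSP90AA1 in K498A (-0.31), HSP90AA1 in DE636AA (-0.32) and DNAJB1 in GA-KH (-0.30), and the siNT levels against CLIP of HSPH1 in DE636AA (-0.42), HSPB1 in DE636AA (0.59) and BAG1 in A546H (0.56). Depth limits HSPB1 most, whose lowest library held 47 counts.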

Other observations

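Over the 16 group means of log2 CPM, 10534 genes averaging 5 CPM or more were compared with each member by Pearson's r, as a description over groups that share lines and siRNAs. The CLIP siUPF1 mean includes replicate 2, the library that stood apart. The 3 genes most like BAG1 were BCL7B (0.98), FNTB (0.98) and FAM134A (0.98). Those most like ZFAND2A were SMG1 (0.97), SNHG15 (0.95) and CIDECP (0.95); SMG1 is the kinase that phosphorylates UPF1, SNHG15 hosts a small nucleolar RNA, and SMG1 has pseudogene copies that make its count uncertain. HSP90AA1 ran closest to FAM133B (0.98), SMARCC1 (0.97) and SNRPC (0.97), HSPB1 to GPR161 (0.97), MICA (0.97) and CAMTA1 (0.96), DNAJB1 to CREB3 (0.95), FAM32A (0.93) and LYPLA2 (0.93) and HSPH1 to ANXA7 (0.96), CCNK (0.96) and TCEB3 (0.95). The nearest to HSPA8 were CRISPLD1 (0.94), RPL26L1 (0.93) and TDG (0.91), to BAG3 ZC3HC1 (0.94), GPATCH4 (0.93) and SAMD4B (0.92), to HSPA1B HSPA1A (0.95) and MYH14 (0.93) and to HSPA1A HSPA1B (0.95), NF2 (0.89) and DYNLL2 (0.87).

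Among the members the pair HSPA1A and HSPA1B had r = 0.95 over the 16 groups, 2 copies whose reads are shared. BAG3 and HSPH1 had 0.82, ZFAND2A and DNAJB1 0.81, DNAJB1 and HSPA1A 0.75, and BAG1 and ZFAND2A 0.73. HSPB1 and HSP90AA1 ran opposite, at -0.79. HSPA8 had -0.10 with ZFAND2A, but -0.51 over the 8 siUPF1 groups and 0.49 over the 8 siNT groups. With DNAJB1 it had 0.12, but -0.38 over the siUPF1 groups and 0.83 over the siNT groups. The other 6 pairs given above kept their sign in both sets of 8 groups. Not every pair of members is given here. BAG1 and HSPB1 had 0.68 over the 16 groups, but -0.32 over the siUPF1 groups and -0.62 over the siNT groups.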
